A study of Mus musculus with 7 samples.

Results

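The transcripts examined here encode nuclear subunits of respiratory complex I, read from brain vascular fragments of mice. Members were the genes whose symbol is Nduf, then a, b, c, s or v, then digits only, on probe sets with a single gene symbol, and each gene was read from its brightest probe set. This gave 32 genes on 35 probe sets, of 22180 genes with such a probe set in the series. All 35 probe sets passed the filter on low values, a mean log2 value above 4.145. Assembly factors (Ndufaf genes), the acyl carrier protein gene Ndufab1 and Ndufa4l2 do not match that pattern and were kept as context.

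Female mice aged 12 weeks, of the strain given as C57BL/6N in the series design and as C57BL/6 in the sample labels, received an injection into the cerebral ventricles (ICV) of PDGF-CC (4 arrays) or of phosphate-buffered saline, PBS (3 arrays). PDGF-CC is a growth factor that signals through PDGFR-alpha. Vessel pieces were collected from the brain 4 hours later, and the RNA, 10 ng for each array, was amplified and labelled with biotin. Nothing in the labels says whether each sample is a separate mouse or a pool, so p-values reflect only how these samples vary, in part perhaps technically. A bulk measurement of vessel fragments cannot tell fewer cells of a type from less RNA per cell.

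Complex I is the NADH:ubiquinone oxidoreductase of the inner mitochondrial membrane. It oxidises NADH in its N module, passes the electrons along iron-sulfur clusters to ubiquinone in its Q module, and pumps protons through a membrane arm with a proximal and a distal part. Core subunits, conserved from bacteria, carry the catalysis and are encoded partly in the nucleus and partly in mitochondrial DNA, and accessory subunits surround and stabilise them. Brain capillary endothelium and pericytes hold mitochondria, and the epithelium of the choroid plexus is rich in them.

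Many nuclear genes for the respiratory chain are known targets of the transcription factor NRF1 and of ETS-family factors such as GABPA. Promoters of 29 of the 32 members were found in RefSeq, build GRCm38.p6, as windows of 300 bases that reach from 250 before to 50 after the annotated start. The core of the NRF1 motif, GCGCA followed by any base and GCGC, was searched on both strands. It occurred in the promoters of 5 of 29 members (17.2%) and of 1402 of all 27025 genes (5.19%). The letters ACCGGAAG, an ETS motif, occurred in 3 of 29 members (10.3%) and in 702 of all genes (2.60%), searched likewise. The searched letters of these motifs do not overlap in any member, and 21 members held neither. The matches that lay before the start are shown in capitals, since they are a sequence feature that several members share. They are read 5′ to 3′ on the strand of the gene. The matches of Ndufa6, Ndufs3 and Ndufs8 lay after the start and are not shown.

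Ndufa11, chr17:56717682-56717731, plus strand, NRF1 letters: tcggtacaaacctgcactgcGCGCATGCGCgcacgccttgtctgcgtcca
Ndufa8, chr2:36049339-36049388, minus strand, NRF1 letters: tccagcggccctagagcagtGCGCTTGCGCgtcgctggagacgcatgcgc
Ndufa5, chr6:24527687-24527736, minus strand, NRF1 letters: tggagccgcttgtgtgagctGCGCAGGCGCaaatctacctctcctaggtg
Ndufs5, chr4:123718255-123718304, minus strand, NRF1 letters: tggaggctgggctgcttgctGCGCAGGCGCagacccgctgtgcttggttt
Ndufb6, chr4:40279626-40279671, minus strand, ETS letters: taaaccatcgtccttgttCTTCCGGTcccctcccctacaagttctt

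These matches are descriptions of letters, not of bound sites. Of the 8 genes with a match, Ndufs5 and Ndufa5 had higher means and Ndufa11, Ndufa8, Ndufb6, Ndufa6, Ndufs3 and Ndufs8 lower means after PDGF-CC, none past the adjusted threshold. The members with the largest negative differences, Ndufb3 and Ndufv2, held neither set of letters. The last 120 bases before their starts are given because only these members had an unadjusted p under 0.05 on their brightest probe set.

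Ndufb3, chr1:58586277-58586396, plus strand: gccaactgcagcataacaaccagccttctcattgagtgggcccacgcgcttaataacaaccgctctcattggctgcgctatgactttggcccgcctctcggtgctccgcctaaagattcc
Ndufv2, chr17:66101560-66101679, minus strand: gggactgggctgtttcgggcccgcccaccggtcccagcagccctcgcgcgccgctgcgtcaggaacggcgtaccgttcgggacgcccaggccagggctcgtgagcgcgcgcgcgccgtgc

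No complex I transcript passed the adjusted threshold between PDGF-CC and PBS arrays, and the list itself was described without a test. Of the 32 members, 27 had a lower mean in PDGF-CC than in PBS arrays (84.4%), where 51.6% of all tested probe sets did. The median difference was -0.079 (log2), against -0.0038 over all 17734 tested probe sets. Differences ran from -0.47 for Ndufb3 to +0.22 for Ndufs5. Bright genes tended to negative differences in general: of the 3109 tested genes with a mean of 8 or more, 60.6% were negative with a median of -0.023, and of the 21 members at that level 19 were negative with a median of -0.090.

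By limma, 0 of the 32 members passed the adjusted threshold of 0.05 in either direction, as did 0 of all tested probe sets (0%). At an unadjusted p under 0.05, 2 members were lower, Ndufb3 and Ndufv2, where 3.41% of all tested probe sets were. None was higher at that level, where 2.63% of all were. For Ndufb3 alone the highest PDGF-CC value lay below the lowest PBS value, a pattern seen in 2.50% of tested probe sets, and 0 members showed the reverse, seen in 1.80%. Adjusted p of the members ran from 0.769 to 0.961. Standard errors had a median of 0.084, and the 95% interval of 30 members included 0. For 31 members that interval excluded a fall of 0.5 on the log2 scale, the exception being Ndufb3. These counts use the brightest probe set of each gene, and a dimmer set of Ndufa11, described below, differed more.

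**Figure D1:**
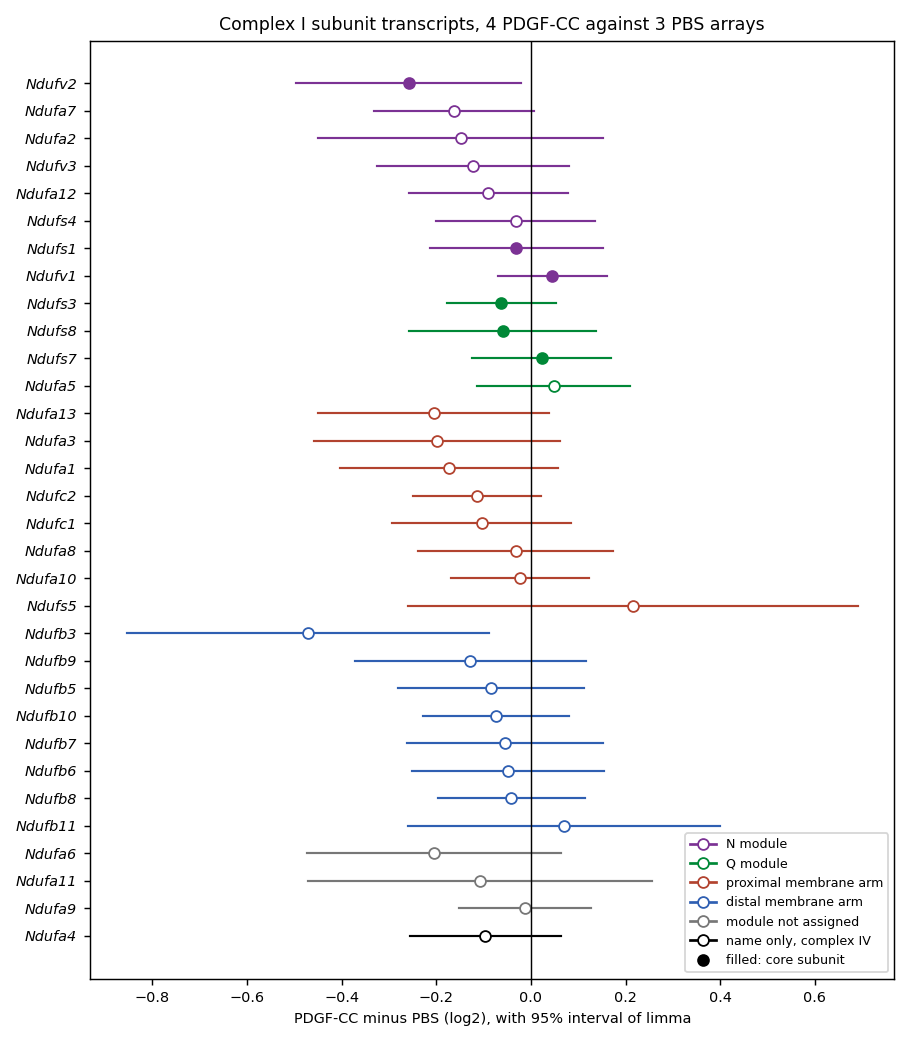
PDGF-CC minus PBS difference (log2, horizontal axis) of each complex I member, grouped by module, with the 95% interval of limma as a line and core subunits filled. Intervals of Ndufb3 and Ndufv2 lie below 0, and all others cross 0.

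The PBS arrays were not alike in these genes. PBS array 2 held the highest of the 7 values for 18 of the 32 members, whereas it was highest for 14.8% of all tested probe sets. Relative to each gene's mean over the 7 arrays, the median over members was +0.15 in PBS array 2, +0.028 in PBS array 3 and -0.022 in PBS array 1. The PDGF-CC arrays had medians of -0.019, -0.061, -0.037 and +0.018 in arrays 1 to 4, so that PBS array 1 lay among the PDGF-CC arrays and the groups overlapped. Without PBS array 2 the median difference was -0.037, with 22 members negative and 0 at an unadjusted p under 0.05. That array was also highest in choroid plexus markers and lowest in microglial markers. Without PBS array 1 it was -0.11, with 26 negative and 4 at an unadjusted p under 0.05. Members lower at that level numbered 0 without PDGF-CC array 2 and 1 without PDGF-CC array 1. Members lower without overlap numbered 7 without PBS array 1, 4 without PBS array 3, and 3 each without PDGF-CC array 3 or 4. Groups of fewer arrays separate more easily, and shares of all tested probe sets were not counted with an array left out.

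**Figure D2:**
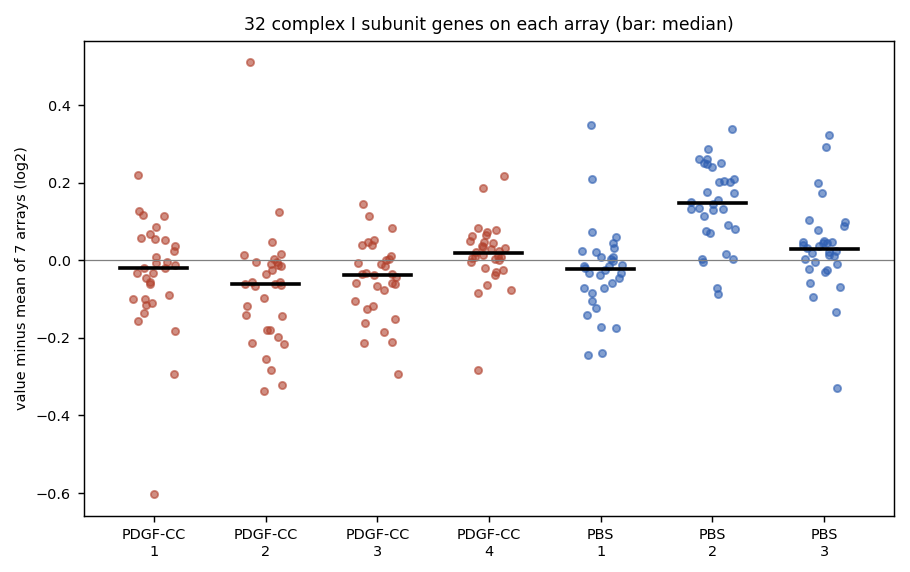
Each point is 1 of the 32 genes, plotted as its value minus its mean over the 7 arrays (log2) for each array, with the median as a black bar. The median of PBS array 2 lies at +0.15, and those of the other 6 arrays lie between -0.061 and +0.028.

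The N module binds NADH and holds the first electron acceptors. Differences of its core subunits ran from -0.26 to +0.045, and whether these subunits differed from each other was not tested. Ndufv2, which carries an iron-sulfur cluster, had values of 8.73, 8.83, 9.07 and 9.03 in the PDGF-CC arrays and 9.24, 9.24 and 9.05 in the PBS arrays. PDGF-CC arrays 1 and 2 were low and the groups overlapped only through PDGF-CC array 3, which lay above PBS array 3. The difference was -0.26 ± 0.10 (SE, n = 4 and 3; 95% interval -0.50 to -0.020; adjusted p = 0.769 by limma). Ndufv1, the subunit that binds NADH and flavin, read 8.29, 8.23, 8.23 and 8.24 against 8.14, 8.23 and 8.23. These values were almost level over the arrays, and exactly the same value occurred in several of them, giving a difference of +0.045 ± 0.049. Ndufs1, the largest subunit of the complex, read 7.51, 7.55, 7.79 and 7.68 against 7.65, 7.65 and 7.69. Its PDGF-CC arrays spread to both sides of the PBS arrays (difference -0.031 ± 0.077).

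Among the accessory subunits of the N module, Ndufa7 read 7.78, 7.93, 7.78 and 7.99 in PDGF-CC and 8.01, 8.10 and 7.99 in PBS arrays. The groups met at a shared value of 7.99, and the difference was -0.16 ± 0.071 (adjusted p = 0.769). Ndufa2, at -0.15 ± 0.13, had a PBS SD of 0.294 against 0.0337 in PDGF-CC. Ndufv3 was at -0.12 ± 0.086, Ndufa12 at -0.090 ± 0.071 and Ndufs4, whose loss causes Leigh-like disease in mice, at -0.033 ± 0.071. In all, 7 of 8 measured N module genes were negative, with a median of -0.11. Ndufs6 of this module had no probe set of its own symbol alone and was not analysed here.

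The Q module, where ubiquinone is reduced, showed the smallest shift of the modules, with 2 of 4 measured genes negative and a median of -0.019. Its core subunit Ndufs3 read 6.75, 6.68, 6.68 and 6.75 against 6.76 in PBS array 3, 6.82 in PBS array 2 and 6.75 in PBS array 1. All of these lay close together, and the difference was -0.063 ± 0.049. Ndufs8, a carrier of iron-sulfur clusters, read 8.20, 8.07, 7.87 and 8.09 against 8.09, 8.08 and 8.18. PDGF-CC array 3 was low in this gene, and the difference was -0.060 ± 0.084. Ndufs7, which holds the last cluster before ubiquinone, read 7.56, 7.55, 7.38 and 7.56 against 7.47, 7.52 and 7.48. Here too PDGF-CC array 3 was low while the other 3 lay above every PBS array, for a difference of +0.023 ± 0.062.

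The accessory subunit Ndufa5 of the Q module read 8.36, 8.50, 8.37 and 8.36 against 8.36, 8.44 and 8.24, with a difference of +0.048 ± 0.068. The groups overlapped, and PDGF-CC array 2 was highest. Over the 6 measured core subunits, 4 were negative with a median of -0.045, and over the 25 accessory subunits 22 were negative with a median of -0.090. The difference between core and accessory subunits was not tested.

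In the proximal membrane arm 7 of 8 genes were negative, with a median of -0.11. Ndufa13, also known as Grim19 and described as a partner of STAT3, read 8.77, 8.53, 8.56 and 8.77 in PDGF-CC and 8.67, 8.998 and 8.92 in PBS arrays. PBS array 1 fell within the PDGF-CC range, and the difference was -0.21 ± 0.10 (adjusted p = 0.769). Ndufc2, which is needed for assembly of the membrane arm, read 10.10, 10.16, 10.23 and 10.19 against 10.21, 10.35 and 10.30. Only PDGF-CC array 3 lay above PBS array 1, and the difference was -0.11 ± 0.058 (adjusted p = 0.769). Ndufa3 read 10.01, 9.76, 9.65 and 10.01 against 9.99, 10.19 and 9.99. PDGF-CC arrays 2 and 3 were low and the other PDGF-CC arrays lay above PBS arrays 1 and 3, for a difference of -0.20 ± 0.11.

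Ndufa1, an X-linked subunit of the same arm, was at -0.17 ± 0.098 and at -0.055 without PBS array 2. Ndufc1 was at -0.10 ± 0.080, Ndufa8 at -0.032 ± 0.087 and Ndufa10 at -0.023 ± 0.062. Ndufs5 was the exception in direction. It was the dimmest member, with values of 4.96, 5.25, 4.66 and 4.46 in PDGF-CC arrays and 4.57, 4.87 and 4.41 in PBS arrays. The groups overlapped widely, and its difference of +0.22 ± 0.20 had the widest interval of all members (-0.26 to +0.69). It was at +0.076 when PDGF-CC array 2 was left out.

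In the distal membrane arm 7 of 8 measured genes were negative, with a median of -0.064. Ndufb3, an accessory subunit mutated in human complex I deficiency, read 7.21, 7.53, 7.90 and 7.81 in PDGF-CC arrays and 8.16, 8.07 and 8.01 in PBS arrays. Every PDGF-CC array lay below every PBS array, arrays 1 and 2 farthest. The SD was 0.309 in PDGF-CC and 0.0746 in PBS arrays. The difference was -0.47 ± 0.16 (SE, n = 4 and 3; 95% interval -0.85 to -0.089; adjusted p = 0.769 by limma), a fold of 0.721. Without PDGF-CC array 1 it was -0.34.

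The 95% intervals of the other distal subunits all included 0. Ndufb9 was at -0.13 ± 0.10, Ndufb5 at -0.084 ± 0.083, Ndufb10 at -0.074 ± 0.065, Ndufb7 at -0.055 ± 0.088, Ndufb6 at -0.049 ± 0.086 and Ndufb8 at -0.042 ± 0.066. Ndufb11, an X-linked subunit, read 6.13, 5.69, 6.13 and 6.23 against 5.84, 6.13 and 5.96. PDGF-CC array 2 was the lowest of all 7 arrays while the other PDGF-CC arrays lay at or above the highest PBS array, giving +0.070 ± 0.14 in all and +0.19 without PDGF-CC array 2. Ndufb1, Ndufb2 and Ndufb4 had no probe set of a single symbol and were not analysed here.

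For 3 accessory subunits the module was left unassigned. Ndufa6 was at -0.21 ± 0.11 (-0.12 without PBS array 2), and Ndufa9, at the junction of the arms, at -0.012 ± 0.059. Ndufa11, an inner-membrane subunit, was measured by a pair of probe sets that gave unlike answers. The brighter read 9.60, 9.34, 9.34 and 9.73 in PDGF-CC and 9.31, 9.68 and 9.84 in PBS arrays, with full overlap and a difference of -0.11 ± 0.15. The dimmer read 6.14, 5.79, 5.93 and 5.88 against 6.55, 6.19 and 6.80. On it every PDGF-CC array lay below every PBS array, at -0.58 ± 0.15 (adjusted p = 0.769 by limma). The brighter set stands for the gene by the rule, and which set reads the transcript better was not tested. Ndufa8 (-0.032 and -0.093) and Ndufa12 (-0.090 and -0.14), the other genes with a pair of probe sets, were negative on both.

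**Figure D3:**
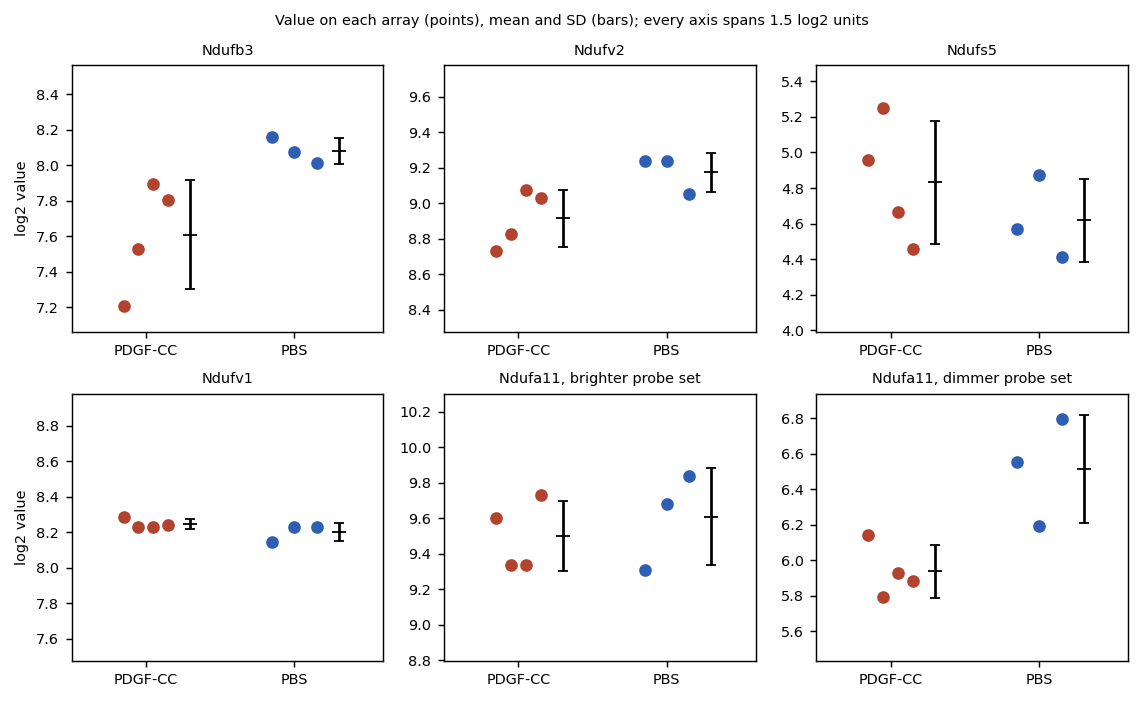
Log2 value on each array (points) with mean and SD (bars) for 4 genes and for both probe sets of Ndufa11, PDGF-CC in red and PBS in blue. Groups do not overlap for Ndufb3 and for the dimmer Ndufa11 probe set, and overlap in the other panels.

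Ndufa4 matches the naming pattern, although its protein is now assigned to complex IV. It read 11.10, 11.14, 11.16 and 11.24 in PDGF-CC and 11.15, 11.37 and 11.24 in PBS arrays, the brightest signal of the members. The groups overlapped, and the difference was -0.096 ± 0.068. Without it 26 of 31 members were negative and the median was -0.074. Its relative Ndufa4l2, a hypoxia-induced gene that also marks pericytes, was at -0.38 ± 0.29 with SDs of 0.409 and 0.486 within groups.

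The mitochondrially encoded subunits of complex I, which build the proton-pumping core of the membrane arm, were all measured. All 7 were negative, with a median of -0.050 and a range from -0.12 to -0.0084, and 0 passed the adjusted threshold or an unadjusted p under 0.05. ND2 was at -0.12 ± 0.067 and ND1 at -0.074 ± 0.055. ND4 and ND5 were at -0.0086 ± 0.048 and -0.0084 ± 0.045. Mean signals were near the top of the scale, between 11.9 and 12.8 where the highest value in the table was 12.99. PBS array 1 was highest of the 7 arrays in the mean over these genes (+0.11), while PBS array 2 was at +0.019 and the nuclear members were at +0.14 in PBS array 2 and -0.028 in PBS array 1. Without PBS array 1 the median of the mitochondrially encoded genes was -0.0037, and without PBS array 3 it was -0.10. Repeated quantile normalization moved their median to +0.00235, where the median of all tested probe sets was +0.00537. Their negative shift was thus not kept under that setting, whereas array weights gave a median of -0.061.

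Assembly factors bring the modules together and are absent from the finished complex. Of 18 listed, 17 were measured, 15 of them negative with a median of -0.070. Tmem126a read 6.84, 7.16, 6.93 and 7.22 in PDGF-CC and 7.51, 7.28 and 7.33 in PBS arrays. Each PDGF-CC value lay below each PBS value, as in 2.50% of all tested probe sets. The difference was -0.33 ± 0.11 (adjusted p = 0.769 by limma). Ndufaf3 was at -0.21 ± 0.081, Timmdc1 at -0.12 ± 0.075 and Tmem70, better known for complex V assembly, at -0.11 ± 0.079. At an unadjusted p under 0.05, 2 of 17 were lower and 0 higher, where 3.41% and 2.63% of all tested probe sets were. Ndufab1, the acyl carrier protein shared with mitochondrial fatty acid synthesis, was at -0.078 ± 0.057.

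The remaining complexes showed shifts of the same order. Complex III, which takes electrons from ubiquinol, had 6 of 8 measured genes negative and a median of -0.14, with Uqcrq at -0.17 ± 0.067 and Uqcrc1 at -0.22 ± 0.11. Without PBS array 2 its median was -0.072. Nuclear subunits of complex IV, cytochrome oxidase, had 8 of 9 negative and a median of -0.15. Among them Cox5b was at -0.26 ± 0.092 and Cox7b at -0.23 ± 0.084. Both were lower without overlap between the groups, as were 2.50% of all tested probe sets. Complex II, which oxidises succinate, had 3 of 4 negative (median -0.053, Sdhc -0.20 ± 0.095) and complex V, the ATP synthase, 11 of 15 (median -0.042). Atp5pb was at -0.15 ± 0.062 and Atp5d at -0.18 ± 0.077. Its median lay at -0.0083 when PDGF-CC array 2 was left out and at -0.094 when array 4 was.

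Citrate cycle enzymes and markers of mitochondrial mass had 7 of 11 negative and a median of -0.032, which was +0.0068 without PDGF-CC array 2. Idh3g was at -0.081 ± 0.058 and Dlst at +0.10 ± 0.084. Regulators of mitochondrial genes had 7 of 10 negative and a median of -0.041. Ppargc1a, the coactivator of mitochondrial biogenesis, was at -0.18 ± 0.093, Nrf1 at -0.15 ± 0.079 and Gabpb1 at +0.095 ± 0.055. No gene of these lists passed the adjusted threshold by limma. Whether complex I differed from the other lists was not tested.

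**Figure D4:**
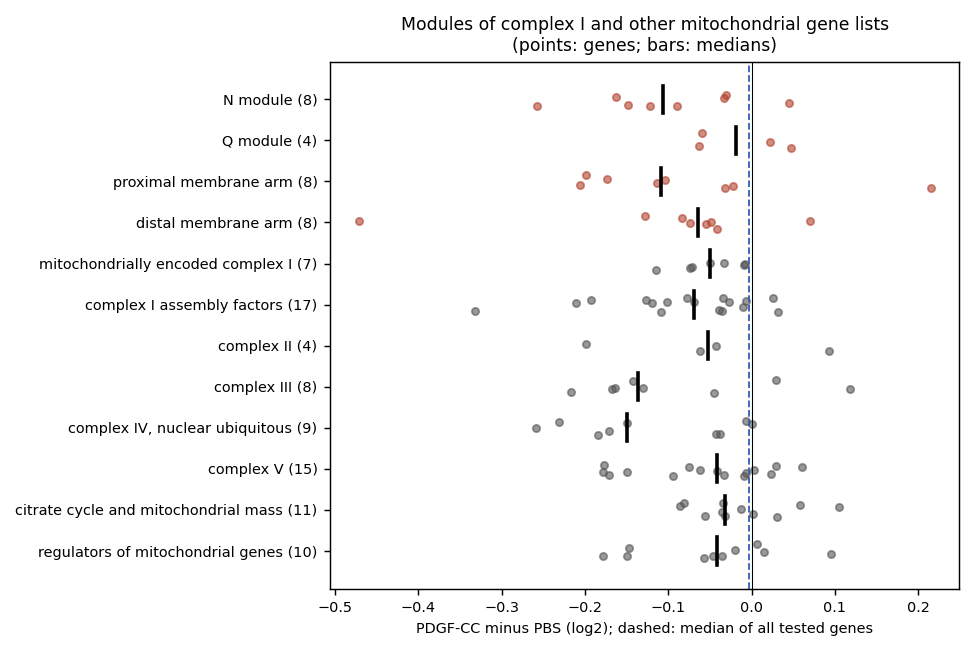
PDGF-CC minus PBS differences (log2, horizontal axis) of single genes, with list medians as black bars and the number of genes in brackets. Medians of the complex I modules lie between -0.11 and -0.019, those of complexes III and IV at -0.14 and -0.15, and the dashed line marks all tested genes.

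Vessel markers were present. All 16 endothelial genes were above the filter, and on average they lay between 10.5 and 10.7 in both groups, with 11 of 16 negative and a median difference of -0.071. Ly6c1 was at -0.16 ± 0.074, Emcn at -0.15 ± 0.075 and Egfl7 at +0.20 ± 0.10. Pericyte genes (10 of 10 measured) had a median of -0.15, with Kcnj8, a subunit of the pericyte potassium channel, at -0.21 ± 0.060. Smooth muscle genes had a median of +0.14, with Cnn1, the contractile protein calponin, at +0.21 ± 0.059.

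Markers of other cells were also uneven over the arrays. Choroid plexus markers averaged 6.26 to 7.10 in PDGF-CC and 7.15 to 7.60 in PBS arrays, all above the filter. Of 10 measured, 9 were negative with a median of -0.75, and Kl, which encodes klotho, was at -1.14 ± 0.30. By limma 9 were lower at an unadjusted p under 0.05, where 3.41% of all tested probe sets were, and 0 passed the adjusted threshold. Groups did not overlap for 7, all lower, against 2.50% of all. Ttr, the transthyretin gene of that epithelium and the brightest marker, read between 12.4 and 12.9 on all arrays. Its difference was -0.26 ± 0.10, with each PDGF-CC value below each PBS value. The mean of choroid plexus markers relative to the 7 arrays was highest in PBS array 2 (+0.61), the array highest in complex I. It was lowest in PDGF-CC array 3 (-0.72), whereas complex I was at -0.049 there and lowest in PDGF-CC array 2 (-0.076). PBS array 1 was at +0.16 in these markers and at -0.028 in complex I. Microglial markers averaged 9.50 to 9.55 in PDGF-CC and 9.001 to 9.45 in PBS arrays and were lowest in PBS array 2 (-0.43), with 10 of 11 positive and a median of +0.23. Their P2ry12 was at +0.32 ± 0.096. The part of these cells in the complex I result was not tested.

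**Figure D5:**
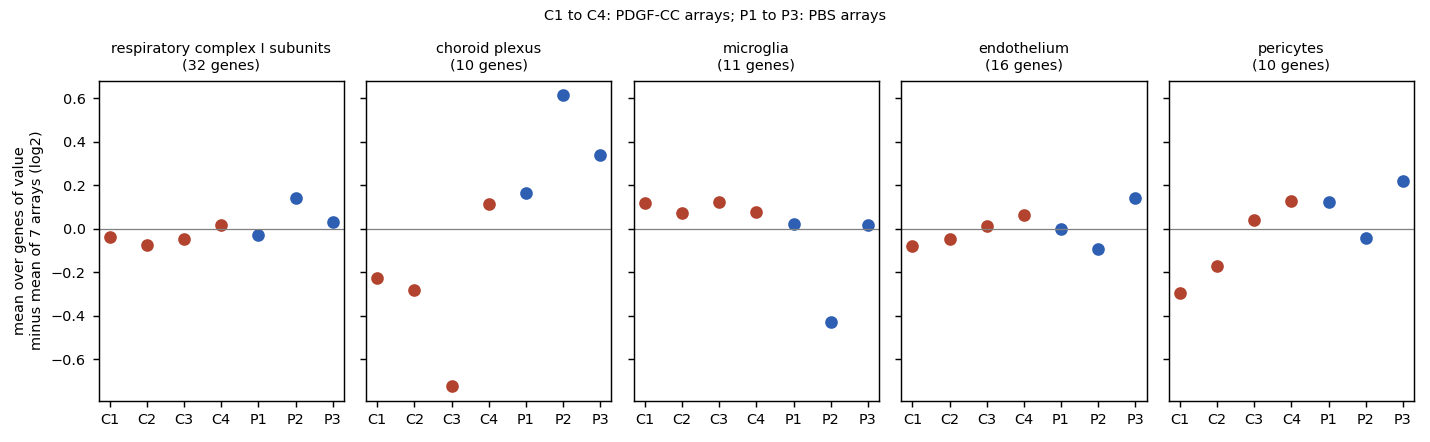
Mean over the genes of a list of the value minus its mean over the 7 arrays (log2), for complex I and 4 marker lists, with PDGF-CC arrays C1 to C4 in red and PBS arrays P1 to P3 in blue. PBS array 2 is highest in complex I (+0.14) and in choroid plexus markers (+0.61) and lowest in microglial markers (-0.43).

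For the other marker lists, medians were -0.021 for astrocytes (8 genes), +0.047 for neurons (7), +0.13 for oligodendrocytes (6), -0.068 for perivascular fibroblasts (5) and -0.042 for ependyma (4). Neutrophil and monocyte markers had a median of -0.32 with 6 of 7 negative. Ly6c2, at -0.32 ± 0.087, was the only 1 of these 7 markers without overlap between the groups. Lower values without overlap were seen in 2.50% of all tested probe sets. The mean of the 7 markers relative to the 7 arrays differed as much within as between groups, from -0.83 in PDGF-CC array 4 to +0.68 in PBS array 1. No red blood cell marker of the 7 listed was measured by a probe set of a single symbol.

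Sample descriptions carry running numbers over both groups, with PDGF-CC arrays at 1, 2, 5 and 6 and PBS arrays at 3, 4 and 7. Their meaning is not stated. Within numbers 1 to 4 the median complex I difference was -0.11, with 25 of 32 members negative, and within 5 to 7, which hold a single PBS array, it was -0.011 with 18 negative. Ndufb3 was at -0.75 within 1 to 4 and -0.16 within 5 to 7, and Ndufv2 at -0.46 and +0.0008. Values of the arrays correlated at 0.987 to 0.994, and the median residual SD of a tested probe set was 0.128.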

How the data were processed

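The deposited log2 values were used as given; the submitters' processing notes name Affymetrix Expression Console, RMA and limma, without versions or settings. RMA equalises distributions between arrays, so shifts in overall RNA content are not visible. The upstream genome build is not given in the sources used here. Arrays carry no read depth, and their number limits the precision.

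Tested probe sets (17734 of 33793) had a gene symbol in the platform annotation and a mean over 4.145, the 30th percentile. Probe sets with several symbols named no gene, which left out 6 further ones of Nduf genes. The comparison used limma 3.58.1 in R 4.3.3 (lmFit, eBayes; 2-sided, no covariates) with Benjamini-Hochberg adjustment over all tested probe sets, and was tested on simulated data. Differences are PDGF-CC minus PBS with the standard error. Lists are described by counts and medians of each gene's brightest probe set. Symbols were updated through RefSeq (GRCm38.p6). Values identical in 2 or more arrays occurred in 16 members and in 63.6% of tested probe sets.

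Members and lists were chosen with earlier results of these data known. Values on every array are given for the members with the 6 smallest p and the 3 largest positive differences, the core subunits and Ndufa4. Other mitochondrial lists name up to 4 genes with the smallest p and marker lists up to 3. ND4, ND5 and Ttr, and the array values of Ndufa11 and Tmem126a, were chosen after their values were seen. Alternatives covered filters, normalization, priors, weights, covariates, blocks, probe sets and left-out arrays. Figures used matplotlib 3.10.9.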

Additional observations from a re-analysis of the deposited data

Results flagged for a closer look

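In the 4 PDGF-CC arrays a single array stood apart from the other 3, by its gap relative to the range of the 4, for 5 of the 32 members. Such a gap can be small in itself. With Ndufab1 and the means over lists, 59 groups were examined and 7 flagged. Chance flags about 1 in 20 such groups for normal values without ties, whereas 16 members held values identical in 2 or more of the 7 arrays. The rate under ties was not examined, nor were groups of 3 arrays. Ndufv3 was lowest in PDGF-CC array 3 (7.19, next 7.32) and Ndufs7 lowest in the same array (7.38, next 7.55). Ndufb6 was lowest in PDGF-CC array 1 (7.82, next 8.01) and Ndufv1 highest there (8.29, next 8.24). Ndufa5 was highest in PDGF-CC array 2 (8.50, next 8.37). Relative to the 7 arrays, the acyl carrier protein gene Ndufab1 was at -0.14 in PDGF-CC array 1 (next -0.015), and the mean over neutrophil and monocyte markers was at -0.83 in PDGF-CC array 4 (next +0.029).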

How the results depend on the processing

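Under every alternative run, 0 members passed the adjusted threshold and the median over members stayed negative, between -0.11 and -0.037, with 22 to 27 members negative. Repeated quantile normalization gave -0.044 and array weights -0.050. Leaving out 1 array at a time gave medians from -0.11 (without PBS array 1) to -0.037 (without PBS array 2), 0 to 4 members lower at an unadjusted p under 0.05, 1 to 7 members lower and 0 to 1 higher without overlap, and 0 to 1 probe sets of the whole table past the adjusted threshold. Shares of all tested probe sets at that p or without overlap were not counted under any alternative, and groups of fewer arrays separate more easily. Leaving out arrays gave medians of -0.19 to -0.072 for complex III, -0.094 to -0.0083 for complex V and -0.042 to +0.0068 for citrate cycle genes. Among all probe sets, 3 passed after filtering at the 50th percentile, 3 after median centring, 3 with a trended and robust prior and 1 with repeated quantile normalization. Members lower at an unadjusted p under 0.05 numbered 1 with array weights and 1 with the description number as a covariate, which also put the citrate cycle median at +0.0060. Median centring left 1 member higher without overlap, and averaging probe sets left 2 lower without overlap. The causes of these changes were not tested. With array weights Ndufb6 was at +0.013, Ndufb7 at +0.0034 and Ndufs1 at +0.0025. With quantile normalization Ndufa10 was at +0.0063, Ndufa9 at +0.014 and Ndufs4 at +0.0035, and with the description number Ndufa9 was at +0.0049 and Ndufs1 at +0.0094. When arrays were left out, 12 members changed sign: Ndufa11 (-0.26 to +0.0065), Ndufb5 (-0.16 to +0.012), Ndufs8 (-0.11 to +0.0032), Ndufb7 (-0.13 to +0.031), Ndufb6 (-0.12 to +0.013), Ndufb8 (-0.073 to +0.014), Ndufs4 (-0.077 to +0.010), Ndufa8 (-0.11 to +0.011), Ndufs1 (-0.084 to +0.0098), Ndufa10 (-0.064 to +0.014), Ndufa9 (-0.059 to +0.014) and Ndufa5 (-0.0048 to +0.096). The other 20 members kept their sign under every alternative in which they were tested. Of these, Ndufs5 (mean 4.74) fell below the filter at the 50th percentile (5.332) and was not tested there.

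Sample numbers in the titles are shared between groups. Deviations of same-numbered arrays correlated at 0.163, 0.107 and 0.084, so the numbers were not taken as pairs. Yet each array numbered 1 to 3, except PBS array 3, correlated best with its own number. PBS array 3 correlated best with PDGF-CC array 4 (0.32). Between PDGF-CC and PBS arrays, correlations were 0.04 to 0.32 within description numbers 1 to 4 or 5 to 7, and -0.224 to -0.007 across these parts. The main fit held no block for these parts. With that block the median over members was -0.074, with 27 negative and a lowest adjusted p of 0.475 by limma. With the replicate number as a block the median over members was -0.093, with 27 negative, 2 lower and 1 higher at an unadjusted p under 0.05, and complex V was at -0.094.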
